A study of Mus musculus with 18 samples.

Results

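Titin, the M-band proteins and the proteins that bind titin were followed as 9 genes: Ttn, Obsl1, Myom1, Myom2, Myom3, Neb, Nebl, Ankrd1 and Ankrd23. They were chosen by name, as the rows of the deposited count table with these gene symbols, and all 9 were found among its 24514 genes. Of the 9, 7 passed the filter on low counts and were tested with the 13802 genes that passed it, and Myom3 and Nebl did not pass. The cells were mouse embryonic fibroblasts of the iMGT-Myh6-eGFP line, in which doxycycline turns on Mef2c, Gata4 and Tbx5 and a Myh6 promoter drives green fluorescent protein. They received an siRNA against Chst7, a Golgi sulfotransferase gene (siChst7), or a control siRNA (siControl), and poly-A RNA was sequenced at day 0, before doxycycline, and after 1 and 3 days of doxycycline at 1 µg/mL. The 6 groups were siChst7 and siControl at day 0 without doxycycline, siChst7 and siControl at day 1 with doxycycline, and siChst7 and siControl at day 3 with doxycycline, with 3 biological replicates each. Each of the 18 samples pooled 40 wells that had been seeded with 1000 cells. All groups shared a single cell line with the inducible factors and the reporter, and no group was kept without doxycycline to day 1 or day 3, so that time in culture and induction cannot be told apart.

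Titin is the giant elastic protein of striated muscle. A single molecule runs from the Z-disc, where thin filaments are anchored, to the M-band, the midline of the sarcomere where thick filaments are held together. The myomesins link thick filaments and the titin end at the M-band, and obscurin-like 1 bridges titin and myomesin there. Nebulin lies along the thin filament of skeletal muscle and the shorter nebulette is its relative in heart. Ankrd1 (CARP) and Ankrd23 (DARP) encode muscle ankyrin repeat proteins that bind the spring region of titin and can also enter the nucleus, and Ankrd1 is widely used as a target gene of the coactivators YAP and TAZ.

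Total counts per library ran from 30590742 to 50021142. Chst7 in siChst7 cells was at 2.29% of its siControl level at day 0, 2.01% at day 1 and 8.59% at day 3, in CPM, the count relative to the scaled library total. The 8 fibroblast markers summed to at least 6695 CPM in each library, most of it from Vim and Col1a1. At day 3 against day 0, 4 of the 6 tested fibroblast markers were called lower and 2 higher in each arm. Of all tested genes, 75.7% were called there in siChst7 and 73.4% in siControl, in either direction. Dcn had a log2 fold change (log2FC) of -4.09 in siChst7 and -4.44 in siControl, Col3a1 of -2.76 in siChst7 and -2.27 in siControl, and Pdgfra of -1.80 in siChst7 and -0.61 in siControl. The 2 higher were Vim and Col1a1. Vim went from 3026 to 5156 CPM in siChst7 and from 3909 to 5967 CPM in siControl. Col1a1 went from 1885 to 2673 CPM in siChst7 and from 1794 to 3080 CPM in siControl. The sum of the 8 markers was 6695 to 7225 CPM in siChst7 and 7132 to 7398 CPM in siControl at day 0. At day 3 it was 8685 to 9257 CPM in siChst7 and 9695 to 10299 CPM in siControl. The part of the fibroblast markers in the members' rise was not tested. The 10 cardiomyocyte markers summed to 22.0 to 22.7 CPM in siChst7 and 9.99 to 11.6 CPM in siControl at day 0, and to 917 to 1112 CPM in siChst7 and 771 to 834 CPM in siControl at day 3. Most of the day 3 sum came from Tnnt2 (815 CPM in siChst7, 680 in siControl) and Actc1 (199 in siChst7, 105 in siControl). Myh6, whose promoter drives the reporter, had 1.16 CPM in siChst7 and 1.00 in siControl at day 0. It had 3.37 CPM in siChst7 and 2.86 in siControl at day 1, and 2.51 in siChst7 and 1.42 in siControl at day 3. Among these markers Nkx2-5, a cardiac transcription factor, had 0 counts in every siControl group, and Actn2, which encodes the α-actinin that anchors titin at the Z-disc, had 0 counts at day 0 and at most 5 counts summed over any group. The 10 skeletal muscle markers summed to 93.1 to 111 CPM in siChst7 and 84.1 to 91.1 CPM in siControl at day 3, where Myod1 had 0 counts in siChst7 and Pax7, Myf5 and Myf6 had 0 in siControl. Most of that sum came from Acta1, with 84.1 CPM in siChst7 and 73.4 CPM in siControl. At day 0 the 10 summed to 9.52 to 12.0 CPM in siChst7 and 13.3 to 15.5 CPM in siControl. Of them 5 were tested, and all 5 were called higher at day 3 against day 0 in each arm. In that comparison 75.7% of all tested genes were called in siChst7 and 73.4% in siControl, in either direction. Myog, the gene of myogenin, had 67 counts in siChst7 and 87 in siControl at day 3, against 2 in siChst7 and 0 in siControl at day 0. Tnnt3, the fast skeletal troponin T, had 1530 counts in siChst7 and 1508 in siControl at day 3, against 11 in siChst7 and 4 in siControl at day 0. Ckm had 42 counts in siChst7 and 68 in siControl at day 3, against 0 in each at day 0. Myog, Tnnt3 and Ckm passed the filter through their day 3 counts, so that their rise was built into that choice. The count of 5 called higher is thus a description. The part of the skeletal muscle markers in the members' rise was not tested. The siChst7 library of replicate 1 at day 3 stood apart in its share of ribosomal precursor RNA (Rn45s), which was 1.96% of its counts against at most 0.654% in the other 17 libraries.

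The promoters of 4 genes that follow show the DNA around the start of titin, of an M-band gene that rose steeply with induction, of the member that differed between the siRNAs at every day, and, for contrast, of Obsl1, an M-band gene that was already high at day 0. The windows, from RefSeq on GRCm38.p6, hold 250 bases before and 50 after the start site and read 5′ to 3′ along the gene. They were searched on both strands for GATAA preceded by A or T (the sequence that GATA factors bind), for GGTGTG (T-box factors), for GGAATG (TEAD factors, the DNA-binding partners of YAP), and for the MEF2 consensus and the CArG box of serum response factor. Capitals mark the matches, and no match overlaps another. The Ttn window (chr2:76982498-76982797, minus strand) holds a MEF2 consensus at bases -166 to -157 from the start site and a TEAD motif at bases 12 to 17. The Myom1 window (chr17:71019307-71019606, plus strand) surrounds a start inside the gene and holds a GATA motif at bases -115 to -110 and a CArG box at bases -99 to -90 from it. The Ankrd1 window (chr19:36119795-36120094, minus strand) holds 3 T-box motifs, 2 TEAD motifs and 1 GATA motif. The Obsl1 window (chr1:75506403-75506702, minus strand) holds no match to these letters.
Ttn: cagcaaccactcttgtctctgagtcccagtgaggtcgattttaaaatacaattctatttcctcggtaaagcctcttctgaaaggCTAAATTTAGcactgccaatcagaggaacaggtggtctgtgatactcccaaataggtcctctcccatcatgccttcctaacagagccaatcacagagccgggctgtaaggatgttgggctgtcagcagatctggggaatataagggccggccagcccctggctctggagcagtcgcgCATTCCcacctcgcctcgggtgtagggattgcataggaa
Myom1: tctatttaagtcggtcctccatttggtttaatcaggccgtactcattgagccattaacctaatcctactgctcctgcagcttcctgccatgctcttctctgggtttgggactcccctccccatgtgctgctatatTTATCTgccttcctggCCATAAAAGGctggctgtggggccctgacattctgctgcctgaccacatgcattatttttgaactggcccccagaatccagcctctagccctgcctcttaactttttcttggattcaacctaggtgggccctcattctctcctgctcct
Ankrd1: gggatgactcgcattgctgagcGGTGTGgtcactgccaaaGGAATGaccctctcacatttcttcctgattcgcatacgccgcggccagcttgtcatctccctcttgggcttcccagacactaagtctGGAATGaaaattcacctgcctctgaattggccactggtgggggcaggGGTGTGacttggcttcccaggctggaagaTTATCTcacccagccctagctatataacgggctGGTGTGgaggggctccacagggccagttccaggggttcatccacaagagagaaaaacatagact
Obsl1: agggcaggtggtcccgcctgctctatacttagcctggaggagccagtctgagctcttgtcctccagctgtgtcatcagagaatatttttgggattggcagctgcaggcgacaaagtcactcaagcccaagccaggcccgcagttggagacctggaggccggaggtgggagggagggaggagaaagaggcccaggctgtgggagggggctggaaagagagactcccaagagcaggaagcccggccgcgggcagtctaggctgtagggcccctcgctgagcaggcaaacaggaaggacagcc
Over 32851 mouse promoter windows of 300 bases, 18.6% hold the GATA letters, 19% the T-box letters, 14.7% the TEAD letters, 3.19% the MEF2 consensus and 1.63% the CArG box. The matches describe these windows and are not known binding sites. RefSeq windows were found for 7 of the 9 members, and the Myom3 window holds a MEF2 consensus at bases -35 to -26.

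Over the 3 days, titin, Myom1, Myom2 and Neb rose many-fold and were low at day 0, Ankrd1 and Obsl1 rose and were already high at day 0, and Ankrd23 moved least among the low genes. In cells at day 1 against day 0, 6 of 7 tested members rose and none fell after siChst7, and 6 rose and none fell after siControl. Calls are those of edgeR's quasi-likelihood test at a Benjamini-Hochberg adjusted p under 0.05, and over all tested genes 60% were called in siChst7 and 60.3% in siControl, in either direction. In cells at day 3 against day 1, 5 members rose and 1 fell in siChst7, where 65.2% of all genes were called, and 5 rose and 1 fell in siControl, where 55.2% were called. In cells at day 3 against day 0, all 7 tested members rose in siChst7 (75.7% of all genes called) and 6 of 7 rose in siControl (73.4%). The members' median log2FC for day 3 against day 0 was 4.30 in siChst7 and 3.64 in siControl, with medians over all genes of 0.01 in siChst7 and -0.05 in siControl. Neb passed the filter through its counts at days 1 and 3, so that its difference from day 0 was built into that choice. The steps share libraries, day 1 being in both single steps and day 0 and day 3 in the whole interval.

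**Figure D1:**
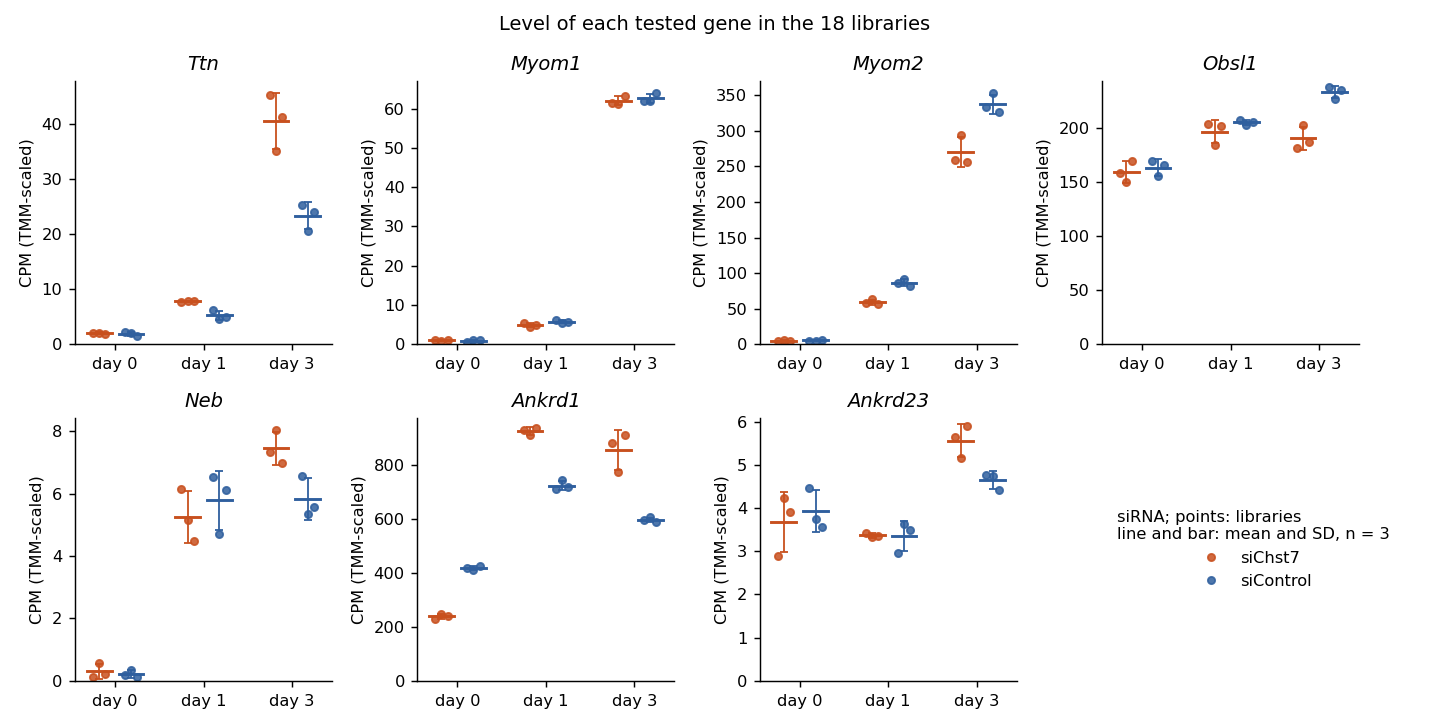
CPM of the 7 tested members by day, in siChst7 (left) and siControl cells, on linear axes that start at 0; points are the 18 libraries, and lines and bars are the mean and SD of 3. Ttn, Myom1 and Myom2 are highest at day 3, and Ankrd1 in siChst7 lies below siControl at day 0 and above it at days 1 and 3.

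Titin rose at each step, and more of it was read after siChst7 than after siControl at days 1 and 3. Ttn lies on chromosome 2 (76703980 to 76982557, minus strand, GRCm38.p6). At day 0 it had 2.12, 2.13 and 1.93 CPM in siChst7 cells, against 2.17, 2.01 and 1.45 CPM in siControl cells. At day 1 it had 7.73, 7.82 and 7.85 CPM in siChst7, against 6.23, 4.60 and 5.00 CPM in siControl. At day 3 it had 45.3, 35.2 and 41.4 CPM in siChst7, against 25.4, 20.6 and 24.1 CPM in siControl. The groups overlapped at day 0 and did not overlap at day 1 or day 3, and the siChst7 libraries of day 1 were closer to each other than those of any other group. The log2FC of siChst7 against siControl was 0.14 ± 0.17 (SE, n = 3 and 3) at day 0, with an adjusted p of 0.613 by edgeR's quasi-likelihood test. The day 1 difference was 1.48-fold, a log2FC of 0.57 ± 0.13 (edgeR adjusted p = 0.00353). The day 3 difference was 1.74-fold, a log2FC of 0.80 ± 0.10 (edgeR adjusted p = 2.68e-06). The effect at day 3 exceeded that at day 0 by 0.66 ± 0.20 (edgeR interaction term, adjusted p = 0.0119), and without siControl replicate 1 of day 0 the adjusted p of this term was 0.0575. The effects at days 3 and 1 differed by 0.23 ± 0.17 (adjusted p = 0.318 for the edgeR interaction). Between days, titin rose 3.78-fold in siChst7 and 2.81-fold in siControl by day 1, and a further 5.20-fold in siChst7 and 4.43-fold in siControl by day 3.

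The titin gene was the longest in the table, at 104320 bases, so that its 65 to 107 counts per library at day 0 were spread thinly and its 899 to 1567 counts at day 3 left it among the lowest members per base. Without siChst7 replicate 1 of day 3, the library rich in Rn45s and the highest for titin, the day 3 log2FC was 0.71 (edgeR adjusted p = 5.05e-05). The difference between the siRNAs at day 3 varied with gene length. The 690 tested genes of 45 to 802 bases had a median log2FC of 0.65. The 691 genes of 7875 to 104320 bases, with Ttn and Neb among them, had a median of -0.07. The genes of 1587 to 1802 bases, where Ankrd1 falls, had a median of 0.07. A fit with a length offset gave 0.85 for Ttn and 0.42 for Ankrd1 at day 3. Myom2 and Obsl1, both lower in siChst7 at day 3, fall among lengths with medians of -0.075 and -0.095. Over 10 other settings, the length offset among them, Myom2 ranged from -0.37 to -0.26 and Obsl1 from -0.34 to -0.22. Both calls were kept in each setting. In a mixed culture, fewer cells that carry a transcript and less of it per cell cannot be told apart, here or for the genes that follow.

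Of 20 genes for proteins that bind titin or sit at its ends, 15 were tested. Several passed the filter through their counts at days 1 and 3, so that their rise was built into that choice and the list's counts and medians with induction are descriptions. Trim54 had 3 counts in siChst7 and 0 in siControl at day 0, Trim63 0 and 2, and Csrp3 0 in both. In siChst7, 8 rose and 3 fell at day 1 against day 0, and 13 rose and 2 fell at day 3 against day 1. In siControl, 7 rose and 2 fell at the first step, and 12 rose and 1 fell at the second. Among all tested genes, 60% were called in siChst7 and 60.3% in siControl at the first step. At the second it was 65.2% in siChst7 and 55.2% in siControl. The list's median log2FC was 1.57 in siChst7 (1.27 with genes at 0 counts set to their bounds) and 0.36 in siControl at the first step, and 2.06 in siChst7 and 2.64 in siControl at the second, where medians over all genes lay between -0.05 and 0.01. Synpo2l, whose product sits at the Z-disc, rose to 92.5 ± 3.80 CPM in siChst7 and 109 ± 4.96 CPM in siControl at day 1 (SD, n = 3 each), against 0.296 ± 0.141 CPM in siChst7 and 0.165 ± 0.0274 CPM in siControl at day 0. Mybpc3, the cardiac myosin-binding protein C of the thick filament and 1 of the cardiomyocyte markers, rose by a log2FC of 5.12 ± 0.17 in siChst7 and 4.53 ± 0.16 in siControl between days 3 and 1 (edgeR adjusted p = 2.25e-16 and 1.01e-15). Titin's Z-disc anchor Actn2 stayed near 0 counts, as given above.

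Between the siRNAs the same list was mixed. At day 0, 0 of 15 were higher and 4 were lower in siChst7, with a median log2FC of -0.05, or 0.00 with the 3 genes that had a group at 0 counts set to their bounds against a floor of 3 counts over the group. At day 1, 1 was higher and 2 lower (median -0.01), and at day 3, 3 were higher and 2 lower (median -0.01). Over all tested genes 27.4% were called at day 0, 17.6% at day 1 and 44.7% at day 3, so that the list's shares lay near or below the background and are no result about it. Fhl1, a LIM protein that binds the titin spring, was at 59.2 ± 1.99 CPM in siChst7 and 171 ± 7.46 CPM in siControl at day 0 (log2FC -1.53 ± 0.07, edgeR adjusted p = 2.17e-13). At day 3 it was higher in siChst7, with 907 ± 119 CPM against 645 ± 10.2 CPM in siControl (log2FC 0.49 ± 0.06, edgeR adjusted p = 2.38e-06). Nbr1, an autophagy receptor that binds the titin kinase region, was lower in siChst7 at each day, with log2FC of -0.35, -0.57 and -0.35 (edgeR adjusted p at most 2.17e-07). Cryab, a small heat shock protein that binds titin, had a log2FC of 0.51 ± 0.10 at day 3 (edgeR adjusted p = 0.000467), and Sqstm1, the autophagy adaptor p62, had -0.28 ± 0.05 (adjusted p = 0.000105). Trim54, a ubiquitin ligase of the MURF family, was the gene called higher at day 1, with 17 counts over the siChst7 libraries and 0 over the siControl libraries. Synpo2l at day 3 had a log2FC of 0.06 ± 0.06 (adjusted p = 0.473).

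Among 8 splicing regulators of titin and other sarcomere transcripts, 6 were tested. Rbm20, which governs the choice of titin exons in heart, rose to 8.97 ± 0.766 CPM in siChst7 and 12.0 ± 0.534 CPM in siControl at day 3, against 0.0748 ± 0.0561 CPM in siChst7 and 0.0149 ± 0.0257 CPM in siControl at day 0. With 10 counts in siChst7 and 2 in siControl at day 0, Rbm20 passed the filter through its counts at days 1 and 3. Its rise was thus built into that choice. At day 3 Rbm20 was lower in siChst7 by a log2FC of -0.41 ± 0.16 (edgeR adjusted p = 0.0387), so that Rbm20 and Ttn differed in opposite directions there. At day 3, 1 regulator was higher in siChst7 (Mbnl1, 0.27 ± 0.06) and 3 were lower, among them Ptbp1 (-0.20 ± 0.04) and Rbfox2 (-0.14 ± 0.04). At day 0, 0 were higher and 3 lower, and at day 1 edgeR called 0 of the 6, with 1 at an unadjusted p under 0.05 and 0 called by DESeq2. Medians were -0.11 at day 0, -0.02 at day 1 and -0.07 at day 3. The share of all tested genes that edgeR called was 27.4% at day 0, 17.6% at day 1 and 44.7% at day 3. Gene counts do not resolve titin exons.

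The M-band genes parted from each other. Myom2 and Myom1 both climbed with induction, on the log2 scale Myom2 mainly by day 1 and Myom1 mainly between days 1 and 3, while Myom3 stayed near 0 counts. After siChst7, Myom2 was lower than after siControl at days 1 and 3, and Myom1 was not called at any day. Myom2, which encodes M-protein, had 4.03, 5.27 and 4.83 CPM in siChst7 and 4.98, 5.16 and 5.71 CPM in siControl at day 0. Its values at day 1 were 58.1, 63.2 and 56.0 CPM in siChst7, against 86.2, 91.4 and 81.5 CPM in siControl. Its values at day 3 were 259, 294 and 257 CPM in siChst7, against 333, 353 and 326 CPM in siControl. Every siChst7 library lay below every siControl library at days 1 and 3, and the groups overlapped at day 0. The log2FC of siChst7 against siControl was -0.17 ± 0.10 before doxycycline, -0.55 ± 0.07 at day 1 and -0.32 ± 0.06 at day 3. The adjusted p of edgeR's quasi-likelihood test was 0.248, 3.42e-06 and 0.000255 at these 3 days. The effect at day 1 differed from that at day 0 by -0.38 ± 0.12 (edgeR interaction, adjusted p = 0.0525) and the effect at day 3 from that at day 1 by 0.23 ± 0.09 (adjusted p = 0.0664). Neither was called, but the first was called under 7 of 10 other settings, among them the DESeq2 test and the replicate block (adjusted p down to 0.0069), and without any 1 of 4 libraries. The second was called under 3 of the 10, with the replicate block, the length offset and both together (down to 0.00322), and without siChst7 replicate 2 of day 1. The first step of induction was 12.6-fold in siChst7 and 16.3-fold in siControl, and the second 4.57-fold in siChst7 and 3.90-fold in siControl.

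Myom1 encodes myomesin 1, the general myomesin of striated muscle, on chromosome 17 (71003332 to 71126856). It had 1.15, 0.905 and 0.976 CPM in siChst7 and 0.668, 0.952 and 1.05 CPM in siControl at day 0. After 1 day of doxycycline it had 5.33, 4.30 and 4.90 CPM in siChst7, against 6.08, 5.43 and 5.76 CPM in siControl. After 3 days of doxycycline it had 61.4, 61.2 and 63.3 CPM in siChst7, against 62.1, 61.9 and 63.9 CPM in siControl. The day 1 groups did not overlap, yet the log2FC of -0.25 ± 0.10 missed the threshold (edgeR adjusted p = 0.0747). Leaving out siChst7 replicate 1 of day 1 brought it to an adjusted p of 0.041. At day 3 the groups overlapped, with a log2FC of -0.02 ± 0.07 (edgeR adjusted p = 0.874). Myom1 gained 4.74-fold in siChst7 and 6.43-fold in siControl by day 1, then 12.8-fold in siChst7 and 10.9-fold in siControl by day 3. In the GENCODE M21 annotation 207 exon bases of Myom1 overlap the abundant Myl12a on the other strand, and the strand setting of the counting is not given, so that reads there cannot be assigned.

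Myom3, the myomesin of intermediate-speed skeletal fibres, had 4, 0 and 0 counts in siChst7 and 2, 0 and 0 in siControl at day 0. It had 5, 0 and 6 counts in siChst7 and 0, 4 and 0 in siControl at day 1, and 4, 2 and 4 in siChst7 and 6, 2 and 6 in siControl at day 3. These libraries overlap at each day, and the gene was not tested. Low counts here can stand for fewer fragments than reads: over all genes, 64.4% of the values from 1 to 10 were even, against 50.2% of values above 100.

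Obsl1, on chromosome 1 (75485825 to 75506486), was different in kind. Its product binds titin and myomesin at the M-band, and it is also part of a ubiquitin ligase assembly with Cul7 outside muscle. It had 158, 150 and 170 CPM in siChst7 and 170, 155 and 165 CPM in siControl at day 0, before any doxycycline. At day 1 it had 203, 185 and 202 CPM in siChst7, against 207, 203 and 206 CPM in siControl. At day 3 it had 181, 203 and 187 CPM in siChst7, against 238, 227 and 235 CPM in siControl. The groups separated only at day 3, where the siControl libraries were the highest of all 18. The log2FC of siChst7 against siControl was -0.04 ± 0.05 at day 0, -0.06 ± 0.05 at day 1 and -0.29 ± 0.05 at day 3, with edgeR adjusted p of 0.656, 0.454 and 9.56e-05. The effect at day 3 differed from that at day 1 by -0.23 ± 0.07 (edgeR interaction, adjusted p = 0.022) and from that at day 0 by -0.25 ± 0.07 (adjusted p = 0.008). The day 3 against day 1 term lost its call without any 1 of siChst7 replicates 1 and 3 of day 1, siChst7 replicate 1 of day 3 or siControl replicate 1 of day 3, with adjusted p up to 0.0639. At day 3 against day 1, Obsl1 was not called in siChst7 (-0.05 ± 0.05, edgeR adjusted p = 0.454) and rose in siControl (0.18 ± 0.05, adjusted p = 0.00422). The siChst7 direction turned positive under 4 other settings, with upper quartile or total scaling or a length offset.

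The M-band genes and titin thus kept no fixed ratio. Per kilobase of transcript, Myom2 exceeded Myom1 by 5.39 ± 1.33 times in siChst7 and 6.92 ± 1.32 times in siControl at day 0 (SD over 3 libraries). At day 1 the ratio was 14.0 ± 2.33 in siChst7 and 17.1 ± 1.74 in siControl, and at day 3 it was 4.94 ± 0.446 in siChst7 and 6.11 ± 0.336 in siControl. In both arms the day 1 libraries lay above all libraries of days 0 and 3. Between siRNAs the ratio groups overlapped at days 0 and 1 and were apart at day 3. The ratio of Ttn to Myom2 per kilobase was 0.00722 ± 0.00136 in siChst7 and 0.00330 ± 0.000461 in siControl at day 3, and 0.00628 ± 0.000399 in siChst7 and 0.00291 ± 0.000521 in siControl at day 1, with no overlap on either day. Of 45 ratio comparisons by exact two-sided permutation of 3 against 3 libraries, the smallest p that can be had is 0.1, which is 0.125 after Benjamini-Hochberg adjustment over the 45, so that none can pass.

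**Figure D2:**
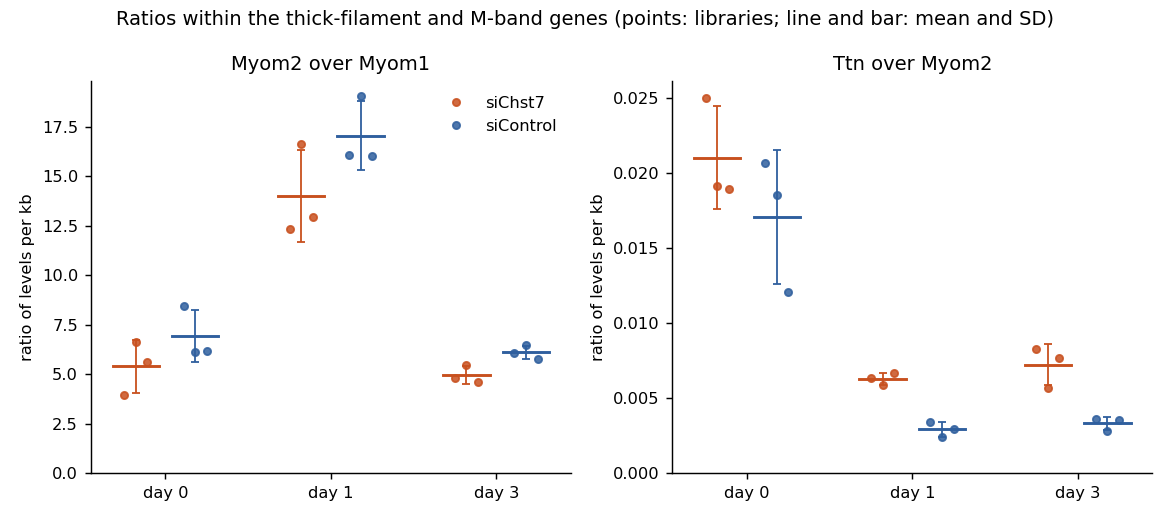
Ratios of levels per kilobase, Myom2 over Myom1 and Ttn over Myom2, in each library by day, in siChst7 (left) and siControl cells, on linear axes that start at 0; lines and bars are the mean and SD of 3 libraries. Myom2 over Myom1 peaks at day 1 in both arms, and Ttn over Myom2 is higher in siChst7 at days 1 and 3.

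Neb, the giant thin-filament ruler of skeletal muscle (chromosome 2, 52136640 to 52338798), was switched on within a day and then changed little. At day 0 it had 7, 26 and 9 counts in siChst7 and 8, 16 and 5 in siControl. Its values at day 1 were 6.15, 5.14 and 4.48 CPM in siChst7, against 6.53, 4.71 and 6.11 CPM in siControl. Its values at day 3 were 7.32, 8.03 and 6.99 CPM in siChst7, against 6.58, 5.34 and 5.56 CPM in siControl. The day 3 groups did not overlap and siChst7 was above, but the log2FC of 0.36 ± 0.19 was not called (edgeR adjusted p = 0.124). With only the libraries of day 3 in the fit it was called at 0.0418. The step from day 1 to day 3 was 0.51 ± 0.19 in siChst7 (edgeR adjusted p = 0.0234) and 0.01 ± 0.19 in siControl (0.981), and the difference of these steps was 0.50 ± 0.27 (adjusted p = 0.178). The siChst7 step lost its call without siChst7 replicate 2 or 3 of day 1, with adjusted p up to 0.106. Nebl, the cardiac relative at the Z-disc, had 2 counts in siControl replicate 3 of day 1, 2 in siControl replicate 1 of day 3 and 0 in the other 16 libraries. Both were under the floor of 3 counts, so no fold was formed.

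Of 11 other nebulin relatives and genes that set thin filament length, all were tested. Xirp1 had 6 counts in siChst7 and 4 in siControl at day 0, Xirp2 0 and 8, and Lmod3 1 and 0, so that these too passed the filter through days 1 and 3, and the list's counts and medians with induction are descriptions. In siChst7, 7 rose and 1 fell at day 1 against day 0, then 4 rose and 5 fell by day 3. In siControl, 8 rose and none fell at the first step, then 4 rose and 4 fell. The share called over all tested genes was 60% in siChst7 and 60.3% in siControl at the first step. At the second it was 65.2% in siChst7 and 55.2% in siControl. The median log2FC was 1.83 in siChst7 and 2.37 in siControl at the first step and -0.25 in siChst7 and -0.31 in siControl at the second. Xirp1, an actin-binding protein of intercalated discs, rose to 21.2 ± 0.158 CPM in siChst7 and 10.0 ± 0.326 CPM in siControl at day 1, and to 51.3 ± 1.67 CPM in siChst7 and 33.0 ± 1.07 CPM in siControl at day 3. Its log2FC of siChst7 against siControl was 1.08 ± 0.10 at day 1 and 0.64 ± 0.09 at day 3 (edgeR adjusted p = 4.6e-08 and 4.12e-06). Lmod2, leiomodin 2, which elongates thin filaments, had 3.32 ± 0.385 CPM in siChst7 and 4.60 ± 0.358 CPM in siControl at day 3, and 1 count summed over each arm at day 0. Its day 3 difference between siRNAs was not called (-0.48 ± 0.20, adjusted p = 0.0549 by edgeR). Nrap, which carries nebulin-like repeats, peaked at day 1, with 9.73 ± 1.18 CPM in siChst7 and 7.83 ± 1.51 CPM in siControl. Lasp1, a nebulin-family member of most cell types, was lower in siChst7 at each day, with log2FC of -0.36, -0.20 and -0.31, and was called each time (edgeR adjusted p at most 0.00742). At day 0 the list had 0 higher and 3 lower in siChst7, at day 1 2 higher and 3 lower, and at day 3 1 higher and 1 lower, with medians of -0.05, 0.16 and -0.17. Of all tested genes, 27.4% were called at day 0, 17.6% at day 1 and 44.7% at day 3. The list's share thus lay near the background at day 0 and below it at day 3. The 2 calls at day 3 by edgeR stand against 4 by DESeq2 and 4 at an unadjusted p under 0.05. Tmod3, a tropomodulin that caps thin filament ends, was the most abundant gene not called at day 3 (-0.10 ± 0.04, adjusted p = 0.0511).

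Ankrd1 was the most abundant member and changed direction between the siRNAs. Before doxycycline it was lower after siChst7 than after siControl, and at days 1 and 3 it was higher. It lies on chromosome 19 (36111965 to 36119844). At day 0 it had 229, 249 and 241 CPM in siChst7, against 416, 411 and 425 CPM in siControl. After 1 day of doxycycline it had 928, 911 and 937 CPM in siChst7, against 709, 742 and 716 CPM in siControl. After 3 days of doxycycline it had 881, 772 and 910 CPM in siChst7, against 595, 605 and 588 CPM in siControl. No 2 of the 6 groups overlapped, and siChst7 held both the lowest group, at day 0, and the highest, at day 1. The log2FC of siChst7 against siControl was -0.80 ± 0.05 at day 0, 0.36 ± 0.05 at day 1 and 0.52 ± 0.05 at day 3 (edgeR adjusted p = 4.4e-11, 1.51e-05 and 6.67e-08). The effect at day 1 exceeded that at day 0 by 1.16 ± 0.07 (edgeR interaction, adjusted p = 2.9e-10), and the effect at day 3 exceeded it by 1.32 ± 0.07 (adjusted p = 1.23e-11). The first day brought a 3.86-fold rise in siChst7 and a 1.73-fold rise in siControl. At day 3 against day 1 the log2FC was -0.12 ± 0.05 in siChst7 and -0.28 ± 0.05 in siControl (edgeR adjusted p = 0.04 and 4.16e-05). The siChst7 value was a call that was lost under 6 of 10 other settings and without siChst7 replicate 1 or 3 of day 1 or replicate 2 of day 3 (adjusted p up to 0.243).

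Smooth muscle markers are 7 genes, some of them also expressed in cultured fibroblasts with stress fibres. Their summed CPM was, like Ankrd1, lower in siChst7 at day 0 and higher at day 3. Most of each sum came from Acta2. It had 468 CPM in siChst7 and 1294 in siControl at day 0, and 3209 in siChst7 and 2801 in siControl at day 3. The 7 summed to 621 to 677 CPM in siChst7 and 1576 to 1726 CPM in siControl at day 0, and none was at 0. At day 1 they summed to 1737 to 1830 CPM in siChst7 and 2231 to 2335 CPM in siControl, where Ankrd1 was higher in siChst7, and at day 3 to 3430 to 4202 CPM in siChst7 and 3078 to 3196 CPM in siControl. Of the 7, edgeR called 0 higher and 5 lower in siChst7 at day 0. It called 0 higher and 3 lower at day 1, and 4 higher and 0 lower at day 3. Over all tested genes 27.4%, 17.6% and 44.7% were called at these days, so that the day 3 share lay near the background. Myh11 went the other way, uncalled, with 0.303 CPM in siChst7 and 0.114 in siControl at day 0, and 0.769 and 0.863 at day 3. So did Smtn at day 3 (47.2 and 48.3). The part of these markers in the Ankrd1 difference was not tested.

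Ankrd23 stayed within a narrow range, from 2.90 to 5.89 CPM. At day 0 it had 2.90, 4.23 and 3.91 CPM in siChst7, against 4.47, 3.74 and 3.57 CPM in siControl. At day 1 it had 3.43, 3.33 and 3.35 CPM in siChst7, against 2.95, 3.62 and 3.49 CPM in siControl. At day 3 it had 5.63, 5.15 and 5.89 CPM in siChst7, against 4.77, 4.75 and 4.41 CPM in siControl. The groups parted at day 3 only, and the log2FC of 0.26 ± 0.13 did not pass (edgeR adjusted p = 0.124). At days 0 and 1 it was -0.10 ± 0.14 and 0.01 ± 0.15 (edgeR adjusted p = 0.652 and 0.987). Ankrd23 rose at day 3 against day 1 by 0.72 ± 0.14 in siChst7 and 0.47 ± 0.14 in siControl (edgeR adjusted p = 0.000101 and 0.00752). In the annotation 2109 of its exon bases are shared with the predicted gene Gm42417 on the same strand, so that its counts are uncertain. Per kilobase, Ankrd1 exceeded Ankrd23 by 89.2 ± 14.8 times in siChst7 and 144 ± 17.8 times in siControl at day 0, by 368 ± 6.30 times in siChst7 and 291 ± 27.3 times in siControl at day 1, and by 206 ± 4.52 times in siChst7 and 172 ± 6.01 times in siControl at day 3 (SD, n = 3).

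Of 20 other YAP and TAZ target genes, all were tested, and most of those called at day 0 were, like Ankrd1, lower in siChst7. At day 0, 1 was higher and 11 were lower in siChst7 (median log2FC -0.18). At day 1, 6 were higher and 2 lower (median 0.02), and at day 3, 5 were higher and 5 lower (median -0.06). The share called over all tested genes was 27.4% at day 0, 17.6% at day 1 and 44.7% at day 3. The list's share at day 3 lay near that background. Ctgf, a matricellular growth factor, had 2276 ± 158 CPM in siChst7 and 4392 ± 45.1 CPM in siControl at day 0 (log2FC -0.95 ± 0.05, edgeR adjusted p = 1.17e-12). Cyr61, its relative, had 709 ± 40.1 CPM in siChst7 and 1338 ± 20.7 CPM in siControl (-0.92 ± 0.04, adjusted p = 5.11e-13 by edgeR). F3, tissue factor, was lower in siChst7 at day 0 and higher at day 3, with a log2FC of -0.90 ± 0.04 and 0.82 ± 0.05 (edgeR adjusted p = 2.32e-13 and 9.22e-11). Tgfb2, a growth factor, had -1.29 ± 0.06 at day 0 (edgeR adjusted p = 1.16e-12). At day 1, where Ankrd1 was higher in siChst7, Ctgf had 0.00 ± 0.05 (adjusted p = 0.972), and Axl, the most abundant gene not called at day 3, had -0.01 ± 0.04 (adjusted p = 0.857). Most of the list fell with induction in siControl, where Ankrd1 rose at the first step: at day 1 against day 0, 9 rose and 10 fell in siChst7 and 3 rose and 13 fell in siControl. At day 3 against day 1, 5 rose and 14 fell in siChst7 and 5 rose and 15 fell in siControl. Of all tested genes, 60% were called in siChst7 and 60.3% in siControl at the first step. At the second it was 65.2% in siChst7 and 55.2% in siControl. The list's median log2FC was -0.02 in siChst7 and -0.53 in siControl at the first step, and -0.32 in siChst7 and -0.24 in siControl at the second.

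Across the members, the siRNA against Chst7 changed titin and Ankrd1 upwards and Myom2 downwards at days 1 and 3, with Obsl1 lower at day 3. Ankrd1 was lower at day 0, with a log2FC of -0.80. At day 0, 0 of 7 tested members were higher and 1 was lower, where 27.4% of all genes were called. At day 1, 2 were higher and 1 lower, with 17.6% of all genes called, and at day 3, 2 were higher and 2 lower, with 44.7% called. A share of 4 in 7 at day 3 is close to that background and says nothing particular about these genes. The members' median log2FC was -0.04 at day 0, -0.06 at day 1 and 0.26 at day 3, against 0.01 over all genes each time. The 3 comparisons use different libraries. Between days, the effect differed for 1 member from day 0 to day 1 (11.7% of all genes), for 1 from day 1 to day 3 (28.4%) and for 3 from day 0 to day 3 (38.8%). The reprogramming factors themselves were lower in siChst7 at day 3, with a log2FC of -0.37 ± 0.05 for Mef2c, -0.36 ± 0.05 for Gata4 and -0.33 ± 0.05 for Tbx5 (edgeR adjusted p = 2.33e-06, 1.1e-05 and 1.01e-05). At day 1 they were not called (adjusted p = 0.068, 0.234 and 0.156), with log2FC of 0.13, 0.09 and 0.10. Before doxycycline, Tbx5 was called lower in siChst7, with -0.13 ± 0.05 (edgeR adjusted p = 0.0495). Gata4, with -0.13 ± 0.05, and Mef2c, with -0.001 ± 0.05, were not called at day 0 (edgeR adjusted p = 0.074 and 0.993). The part of these factors in the members' differences was not tested.

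**Figure D3:**
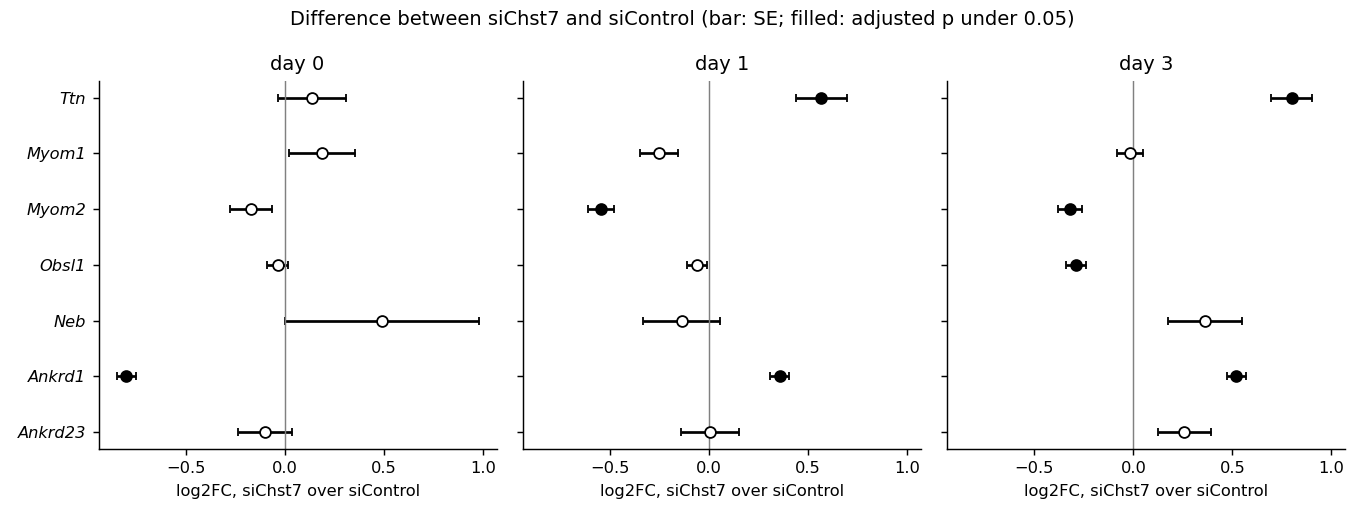
Log2 fold change of siChst7 against siControl for the 7 tested members at days 0, 1 and 3, with standard errors; filled points passed an adjusted p of 0.05. Ankrd1 lies at -0.80 at day 0 and at 0.52 at day 3, Ttn at 0.80 and Myom2 at -0.32 at day 3.

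**Figure D4:**
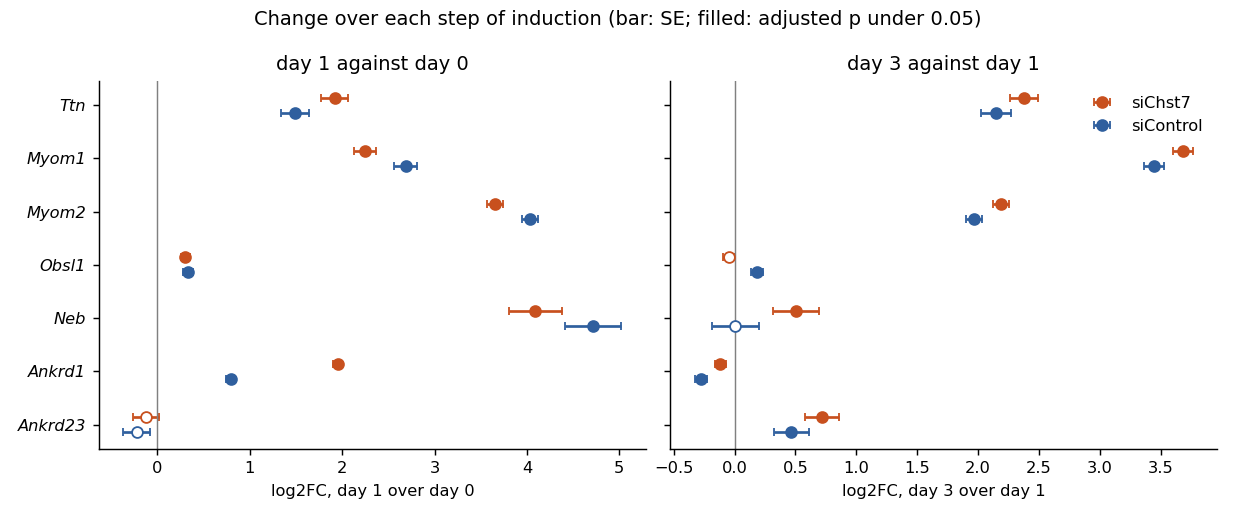
Log2 fold change at day 1 against day 0 and at day 3 against day 1 for the 7 tested members in siChst7 and siControl cells, with standard errors; filled points passed an adjusted p of 0.05. Myom2 and Neb take their larger step by day 1, Myom1 and Ttn by day 3.

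Per kilobase of transcript, Ankrd1 was the highest member in every group. At day 3 Ankrd1 had 484 CPM per kilobase in siChst7 and 338 in siControl, and Myom2 had 54.5 in siChst7 and 68.1 in siControl. Obsl1 had 31.4 CPM per kilobase in siChst7 and 38.5 in siControl, and Myom1 had 11.0 in siChst7 and 11.2 in siControl. Ankrd23 had 2.35 CPM per kilobase in siChst7 and 1.96 in siControl. Titin and nebulin were lowest of the tested members: Ttn had 0.390 CPM per kilobase in siChst7 and 0.224 in siControl, and Neb had 0.331 in siChst7 and 0.259 in siControl. At day 0 Obsl1 stood at 26.3 CPM per kilobase in siChst7 and 27.0 in siControl, above Myom2 at 0.951 in siChst7 and 1.07 in siControl, and Myom2 passed Obsl1 only at day 3. Lengths are those of the deposited table, and a single length per gene does not follow the isoforms in use.

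**Figure D5:**
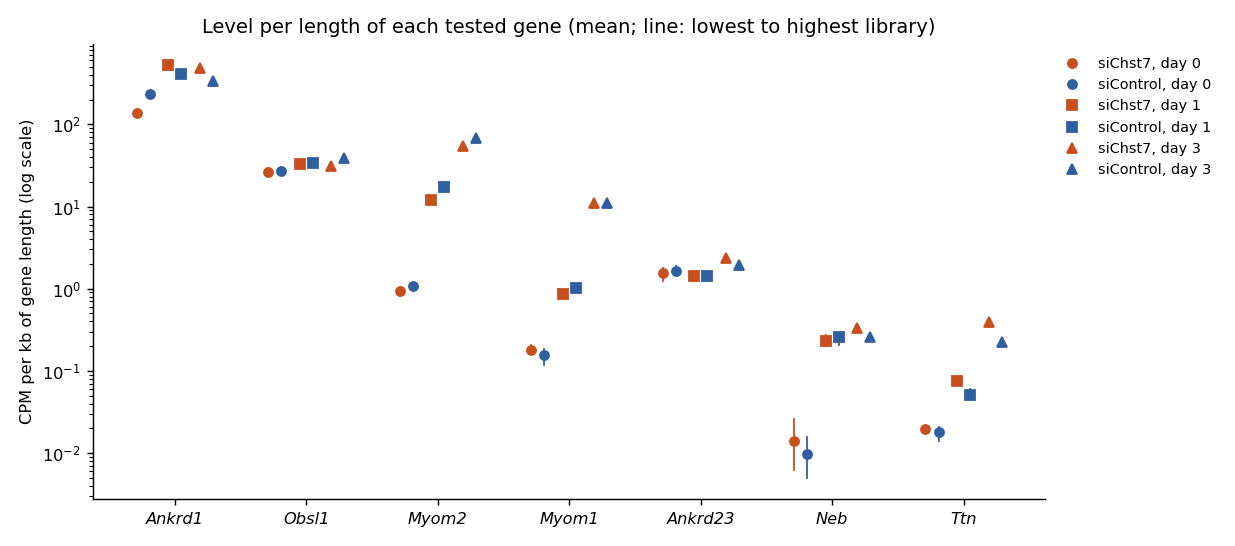
CPM per kilobase of the 7 tested members by group, on a log axis, as group means with a line from the lowest to the highest of 3 libraries. Ankrd1 is highest in every group, and Ttn and Neb are lowest.

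Titin's own order of groups was siChst7 day 3, siControl day 3, siChst7 day 1, siControl day 1 and then both day 0 groups, and only the day 0 groups overlapped. The genes whose pattern over the 18 libraries was most like that of each member were found by the root mean square difference of centred log2 CPM, among genes with a mean of at least 1 CPM. For Ttn these were Atg9b (0.32), Robo3 (0.33) and Zfp750 (0.44). For Myom1 they were Ces2e (0.32), Trdn (0.35), which encodes triadin of the calcium release complex, and Gna15 (0.41). For Myom2 they were Sema3d (0.37), Rnase4 (0.39) and Lmod2 (0.43, leiomodin 2), and for Neb Tspan2 (0.46), Anxa8 (0.50) and Itgbl1 (0.52). Obsl1 was closest to Myo18a, Dda1 and Ddb1 (0.06 each), and Ankrd23 to Ikbip, Ccp110 and Maml2 (0.15 each), values that partly follow from how little these genes varied. Ankrd1 was closest to Dapp1 (0.20), Enah (0.23), an actin regulator, and Arhgap5 (0.23). With a prior count of 1 in place of 2, the nearest genes of Ttn, Obsl1, Ankrd1 and Ankrd23 stayed as given, and some of those of Myom1, Myom2 and Neb changed.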

How the data were processed

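Poly-A RNA of 18 samples, in 6 groups of 3 biological replicates, was analysed. The deposited table holds raw counts (whole numbers of reads for each gene) and gene lengths. The submitters' processing notes name mm10 (GRCm38) as the build and, as the authors' tools, featureCounts of Subread, HISAT2 and DESeq2. Not given in the sources used here are their versions and the settings for strand, multi-mapping and annotation. In the description of each sample a library name is given, which assigned its column, and 0 columns of per-sample values stayed unmatched. Of low values, 17227 were 2 and 9190 were 1 over the whole table, so that a count may be 1 read of a pair.

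Genes were filtered with filterByExpr, which left 13802 of 24514, scaled with TMM and fitted in 1 quasi-likelihood model of 6 groups with edgeR 4.0.16 and limma 3.58.1 in R 4.3.3 (12 residual degrees of freedom, common dispersion 0.00331, a biological coefficient of variation of 5.75%). The tests were two-sided, and p-values were Benjamini-Hochberg adjusted over all tested genes with a threshold of 0.05. Standard errors were derived from log2FC and the F statistic, as |log2FC| / √F. Ratios were compared by exact permutation. The fit was tested on simulated data with known changes. Gene positions and promoters are from RefSeq (GRCm38.p6) and exon overlaps from GENCODE M21, both 1-based. Log CPM for likeness used a prior count of 2. Depth of 30590742 to 50021142 counts per library limits Myom3, Nebl and Neb at day 0.

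The members and gene lists were chosen with earlier results of these data known. Named were all members, the label checks, up to 4 called genes with the smallest adjusted p per list and comparison and the most abundant uncalled gene, of which some are printed, and the 3 genes most alike for each member. Actn2 was named after its values were seen. The listed Ccn1 and Ccn2 stand in the table as Cyr61 and Ctgf. Alternatives were other scalings (RLE, upper quartile, totals), no filter and a filter of 1 CPM in 3 libraries, DESeq2 1.42.0, a replicate block, a length offset, a fit of only the libraries compared, and leaving out each library.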

Additional observations from a re-analysis of the deposited data

Results flagged for a closer look

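5 values of the members stood out because the siChst7 effect, the log2FC of siChst7 against siControl, differed between days by an edgeR interaction term. For Ankrd1 the effect at day 1 exceeded that at day 0 by 1.158 and the effect at day 3 exceeded that at day 0 by 1.32, with a change of sign between day 0 and the later days in every library. For Ttn the effect at day 3 exceeded that at day 0 by 0.661. For Obsl1 the effect at day 3 differed by -0.2289 from that at day 1 and by -0.2542 from that at day 0. Day 0 cells had no doxycycline, so that time after transfection and induction cannot be told apart in these differences.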

How the results depend on the processing

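Of the members' log2FC values under 10 other settings, 803 kept direction and side of the threshold, 6 lost their call, 17 gained one and 13 changed sign; without single libraries the numbers were 596, 10, 8 and 16. Samples with the same replicate number showed no shared deviation: of 27 same-numbered pairs, 0 had a correlation of deviations over 0.1 (range -0.0656 to 0.0615). This cannot tell whether the samples were paired, which the labels do not state. With a replicate block, members called for the siChst7 effect at day 1 against day 0 went to 2 and at day 3 against day 1 to 2, each against 1, Myom2 being the call added. The first count was also 2 with upper quartile scaling, library totals alone, no filter, the block with a length offset, the DESeq2 test and only the libraries compared, and the second was also 2 with a length offset and with block and offset.

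Without single libraries, members called ranged from 1 to 1 at day 0, 3 to 4 at day 1 and 4 to 4 at day 3 between siRNAs, from 4 to 6 for siChst7 and from 6 to 6 for siControl at day 3 against day 1, and from 6 to 7 for siControl at day 3 against day 0. For the difference of effects they ranged from 1 to 2 (day 1 against day 0), 0 to 2 (day 3 against day 1) and 2 to 3 (day 3 against day 0).

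Signs that changed belonged to values that were not called, and the cause was not tested. Between siRNAs, Obsl1 at day 0 was 0.02079 with library totals alone. Ankrd23 at day 1 was -0.001153 with library totals alone, -0.006701 with the length offset, -0.005809 with block and offset and -0.002449 with only the libraries compared. Myom1 at day 3 was 0.05002 with the length offset and 0.05007 with block and offset. Obsl1 in siChst7 at day 3 against day 1 was 0.03859 with upper quartile scaling, 0.06048 with library totals alone, 0.08268 with the length offset and 0.08509 with block and offset. The Obsl1 effect at day 1 minus day 0 was 0.01023 with the offset and 0.009191 with block and offset. Without single libraries at day 0, Ttn ranged from -0.02026 to 0.2497, Obsl1 from -0.08525 to 0.004722, Neb from -0.3374 to 1.039 and Ankrd23 from -0.2138 to 0.05234, and Ankrd23 at day 1 from -0.07767 to 0.06501. Neb in siControl at day 3 against day 1 ranged from -0.1222 to 0.1019. For the effect at day 1 minus day 0, Obsl1 ranged from -0.0664 to 0.02352, Neb from -1.176 to 0.2 and Ankrd23 from -0.04687 to 0.2194, and at day 3 minus day 0 Neb from -0.6781 to 0.6981. Neb changed sign without siChst7 replicate 2 of day 0 (day 0 and both effects) or siControl replicate 3 of day 0 (day 3 minus day 0 only), and in siControl at day 3 against day 1 without siControl replicate 2 of day 1 or replicate 1 of day 3.

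Ankrd1 in siChst7 at day 3 against day 1 lost its call with RLE, upper quartile or total scaling, the stricter filter, the DESeq2 test and only the libraries compared (adjusted p up to 0.799), and without siChst7 replicate 1 or 3 of day 1 or 2 of day 3 (up to 0.243). Ankrd23 in siControl at day 3 against day 0 gained one under the same 6 settings (adjusted p from 0.013). Library totals alone moved the median of all genes to 0.10 in siControl at day 3 against days 1 and 0 (from -0.05), to 0.12 in siChst7 at day 3 against day 1 (from 0.01) and to -0.10 for the effect at day 3 minus day 0 (from 0.01), and upper quartile scaling moved it to 0.05 in siControl at day 3 against day 1. With only the libraries compared, 3924 genes in place of 2426 were called between siRNAs at day 1, and 2448 in place of 1615 for the effect at day 1 minus day 0.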
